A study of Mus musculus with 6 samples.

Results

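The 10 genes described here encode receptors and enzymes that restrain T cells: Ctla4, Tigit, Cd200, Nt5e, Pdcd1, Lag3, Havcr2, Cd160, Btla and Cd5. They form a list of gene names drawn up with earlier results of these data known, and each had exactly 1 row among the 18122 rows of the deposited expression table. All 10 passed the filter of a mean of at least 1 FPKM (fragments scaled by gene length and library total) over the 6 libraries, which 9691 rows passed. Because of that scaling, levels of different genes can be set side by side.

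Inhibitory receptors, also called checkpoints, are brakes that T cells put on their surface after activation. CTLA-4 competes with the activating receptor CD28 for the ligands CD80 and CD86, and TIGIT competes with CD226 for the ligand PVR. PD-1 (Pdcd1) binds PD-L1 and PD-L2, LAG-3 binds MHC class II, TIM-3 (Havcr2) has been reported to bind galectin-9, and BTLA and CD160 share the ligand HVEM (Tnfrsf14). CD5 dampens signals of the T cell receptor (TCR) and is set by the strength of those signals. CD200 is a surface ligand whose receptor sits mainly on myeloid cells, and CD73 (Nt5e) is an ectoenzyme that turns extracellular AMP into adenosine, which suppresses T cells. Many of these genes are induced within hours of TCR engagement, so they also serve as markers of activation.

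The libraries came from mouse CD8+ T cells of lymph nodes, either Dusp2-/- or WT. DUSP2 belongs to the phosphatases that switch off MAP kinases. All cells, of both genotypes, were cultured for 18 h with IL-4 at 20 ng/mL, IFN-α at 50 ng/mL, and antibodies at 1 μg/mL each against CD28 in solution and CD3 on the plate, a mixture meant to give virtual memory T cells. They were then sorted by the surface protein CD44 into very high (CD44hi) and low (CD44lo) cells, so every group here is a stimulated one. The groups were Dusp2-/- CD44hi (2 libraries), WT CD44hi (2 libraries), Dusp2-/- CD44lo (1 library) and WT CD44lo (1 library). Strain, sex and age of the mice, and whether replicates are different animals, are not in the labels. The p-values therefore reflect the spread among these libraries, which may be technical. One treatment text of the labels names Rpa1 floxed mice in place of Dusp2-/- mice.

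The FPKM values were whole multiples of what 1 read is worth, which gave depths of 23871190 reads for the Dusp2-/- CD44lo library and of 43499280 to 56663710 reads for the others. Dusp2 itself had 0 and 3 reads in Dusp2-/- CD44hi and 0 reads in Dusp2-/- CD44lo, against 7197 and 9518 reads in WT CD44hi and 11811 reads in WT CD44lo. Cd44 stood at 65.4 and 66.3 FPKM in Dusp2-/- CD44hi, at 79.9 and 65.3 FPKM in WT CD44hi and at only 1.33 and 1.43 FPKM in CD44lo of Dusp2-/- and of WT. Both genes thus followed the labels. The CD8 T cell markers summed to between 1041 and 1508 FPKM per library. Cd4 and Foxp3, which define the helper and regulatory T cells known for high Ctla4 and Tigit, reached no more than 0.0228 and 0.193 FPKM. The 7 markers of CD4 and regulatory T cells summed to 6.59 and 6.78 FPKM in Dusp2-/- CD44hi and to 8.19 and 6.35 FPKM in WT CD44hi, with CD44lo sums of 4.3 FPKM (Dusp2-/-) and 4.84 FPKM (WT). Marker sums were 0.667 to 5.56 FPKM for NK cells, 0.455 to 1.77 for γδ and innate-like T cells, 3.16 to 7.45 for myeloid and dendritic cells and 10.5 to 22 for stromal and erythroid cells. The 4 B cell markers with a row summed to 123 to 151 FPKM. Of these Ighm gave 110 to 140 FPKM and Cd79b 6.92 to 24.5 FPKM, while Cd79a and Cd22 reached no more than 0.379 and 0.0225 FPKM. In bulk RNA, fewer cells that express a gene and less of its RNA per cell cannot be told apart.

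The upstream sequences of the 4 genes that were lower in Dusp2-/- than in WT CD44hi cells are given first. Each is the 250 bases before the annotated start of transcription, 5′ to 3′ on the gene's strand, from RefSeq on assembly GRCm38.p6. Capitals mark matches to any of 11 short motifs of activation-related factors. The bases just past the start were found in an annotated transcript for Ctla4, Cd200 and Nt5e, but not for Tigit. Ctla4 lies at chr1:60908775-60909024 (plus strand), Tigit at chr16:43664185-43664434 (minus strand), Cd200 at chr16:45409054-45409303 (minus strand) and Nt5e at chr9:88327359-88327608 (plus strand).

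Ctla4: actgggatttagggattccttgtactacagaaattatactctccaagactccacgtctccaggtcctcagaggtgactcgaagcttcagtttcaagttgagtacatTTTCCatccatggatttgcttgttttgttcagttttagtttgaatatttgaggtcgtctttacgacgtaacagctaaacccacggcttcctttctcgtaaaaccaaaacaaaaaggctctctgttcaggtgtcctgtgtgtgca
Tigit: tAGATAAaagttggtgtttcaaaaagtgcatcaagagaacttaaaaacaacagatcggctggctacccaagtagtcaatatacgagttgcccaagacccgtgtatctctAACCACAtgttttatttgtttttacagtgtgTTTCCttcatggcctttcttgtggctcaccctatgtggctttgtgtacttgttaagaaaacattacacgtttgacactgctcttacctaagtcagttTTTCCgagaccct
Cd200: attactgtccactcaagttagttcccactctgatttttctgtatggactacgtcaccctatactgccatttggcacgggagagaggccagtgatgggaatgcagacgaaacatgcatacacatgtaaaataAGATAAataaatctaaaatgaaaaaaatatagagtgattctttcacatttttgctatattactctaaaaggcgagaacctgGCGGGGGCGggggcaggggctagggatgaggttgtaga
Nt5e: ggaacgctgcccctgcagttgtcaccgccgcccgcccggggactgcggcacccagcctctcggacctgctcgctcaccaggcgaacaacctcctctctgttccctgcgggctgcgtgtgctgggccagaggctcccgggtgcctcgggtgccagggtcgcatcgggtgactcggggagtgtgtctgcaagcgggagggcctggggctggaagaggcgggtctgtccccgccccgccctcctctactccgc

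The motifs were searched on both strands in 9 of the 10 genes (the table used has no entry for Lag3) and in all 32851 upstream windows of the same length. GGAAA, the core that NFAT binds, was found in Ctla4, Tigit and Pdcd1, and in 55.6% of all windows. AGATAA, bound by the factor GATA3 and its relatives, was in Tigit and Cd200 (9.99% of windows), and GCGNGGGCG, an EGR site, was in Cd200 (4.7%). TGTGGTT, a RUNX site, was in Tigit, Havcr2, Cd160 and Btla (4.4%), and TGANTCA, an AP-1 site, was in Havcr2 (6.75%). No window of the 9 held TGACGTCA (1.55% of windows, cyclic AMP response), AAAGGTCA (1.34%, NR4A), TTCNNNGAA (7.02%, STAT), TTCNNNNGAA (5.85%, STAT6), GAAANNGAAA (2.98%, interferon response) or AGGTGTGA (1.12%, T-box). For Cd160, which has more than 1 start in the table, the first entry was used. GGAAA can lie inside other sites, and a match of letters is not a binding site. The 4 windows differed in base composition, with 72% G and C in Nt5e, against 42.4% in Ctla4 and in Cd200 and 40% in Tigit. The Nt5e window held none of the 11 motifs.

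Before any comparison, the level of the 10 genes spanned a wide range. Cd5, Lag3 and Tigit were the most abundant, with means over the 6 libraries of 86.9, 82.8 and 73.5 FPKM, above 94.6%, 94.2% and 93.5% of the genes tested. Pdcd1 (31.7 FPKM), Cd160 (26 FPKM) and Btla (12.4 FPKM) followed. Cd200 (7.74 FPKM), Nt5e (6.07 FPKM) and Ctla4 (4.99 FPKM) lay in the lower part of the genes tested, and Havcr2 was at the bottom with 1.71 FPKM, above 8.8% of them. The 4 genes lower in Dusp2-/- CD44hi cells thus include a very abundant one, Tigit, and 3 low ones.

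**Figure D1:**
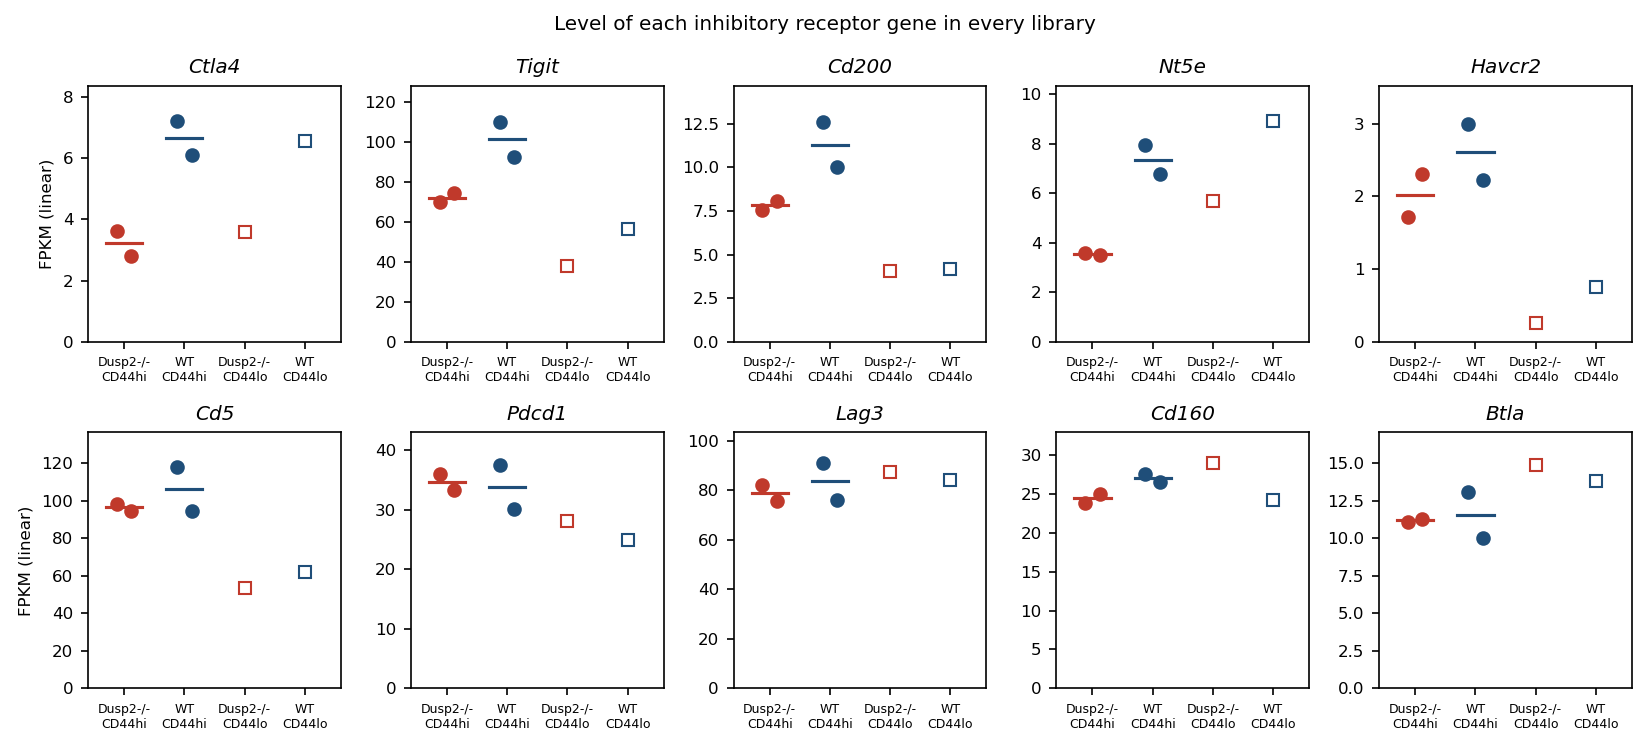
FPKM of each gene in every library on linear axes from 0, with circles for CD44hi (2 libraries per genotype, line at their mean), squares for CD44lo (1 library per genotype), red for Dusp2-/- and blue for WT. Ctla4 and Nt5e are lower in all 3 Dusp2-/- libraries, while Tigit, Cd200, Havcr2, Cd5 and Pdcd1 are higher in CD44hi than in CD44lo of the same genotype.

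The first comparison asks how Dusp2-/- differed from WT in CD44hi cells, with 2 Dusp2-/- against 2 WT libraries. Of the 10 genes, 4 fell (Ctla4, Nt5e, Tigit and Cd200), none rose and 6 did not pass the threshold. Across all genes tested 26.7% passed and 13.8% fell. The median log2 difference of the 10 genes was -0.20, and that of all genes tested was -0.02. These are limma tests on log2(FPKM + 1) with Benjamini-Hochberg adjustment over all genes tested and a threshold of 0.05. With no filter on low values none of the 4 passed, at the same log2 fold changes (limma adjusted p = 0.071 to 0.161). Over all genes the number passing depended on single libraries, with 2586 in all, 1185 without Dusp2-/- CD44hi replicate 1, 1088 without Dusp2-/- CD44hi replicate 2 and 4092 without WT CD44hi replicate 1.

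Ctla4, the competitor of CD28, stood at 3.61 and 2.82 FPKM in Dusp2-/- CD44hi, against 7.21 and 6.11 FPKM in WT CD44hi. The groups did not overlap, and the mean of 3.21 ± 0.553 FPKM in Dusp2-/- was 0.483 times the 6.66 ± 0.778 FPKM in WT (SD, n = 2 each). These values rest on 476 and 348 reads in Dusp2-/-, against 731 and 807 reads in WT. The log2 fold change was -0.86 (SE 0.12, 95% interval -1.15 to -0.58, limma adjusted p = 0.00536). It was never weaker than -0.73 when any 1 CD44hi library was left out. Leaving out a CD44lo library cannot alter the fold changes of this comparison. The neighbouring genes Cd28 and Icos, between which Ctla4 lies with no other protein-coding gene on either side, did not pass. Cd28 stood at 54 and 56.4 FPKM in Dusp2-/- CD44hi and at 82.3 and 60.7 FPKM in WT CD44hi (log2 fold change -0.35, limma adjusted p = 0.0963). Icos, a costimulatory relative of CD28, had a log2 fold change of -0.33 (limma adjusted p = 0.0582).

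Nt5e, which encodes the adenosine-forming CD73, showed the tightest separation. It stood at 3.59 and 3.52 FPKM in Dusp2-/- CD44hi, against 7.93 and 6.76 FPKM in WT CD44hi, with 1749 and 1602 reads against 2969 and 3295 reads. The Dusp2-/- mean was 0.484 times the WT mean, much like the ratio of Ctla4. The log2 fold change was -0.87 (SE 0.092, 95% interval -1.09 to -0.65, limma adjusted p = 0.00257), and its range was -0.97 to -0.77 with any 1 CD44hi library left out.

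Tigit, the receptor for PVR, stood at 69.8 and 74.2 FPKM in Dusp2-/- CD44hi, against 110 and 92.5 FPKM in WT CD44hi. The Dusp2-/- mean was 0.711 times that of WT, a smaller proportional difference than for Ctla4 or Nt5e, but the largest of the 10 in FPKM. The log2 fold change was -0.48 (SE 0.093, 95% interval -0.70 to -0.26, limma adjusted p = 0.0147), and its range was -0.61 to -0.36 with any 1 CD44hi library left out. The gene of CD226, which competes with TIGIT for PVR, moved the other way in CD44hi. Cd226 stood at 35.7 and 36.5 FPKM in Dusp2-/- CD44hi, against 29.9 and 24 FPKM in WT CD44hi (log2 fold change 0.42, limma adjusted p = 0.0286). In CD44lo, which has no test, Cd226 hardly differed, with 20.1 FPKM in Dusp2-/- and 19.9 FPKM in WT.

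Cd200 stood at 7.58 and 8.04 FPKM in Dusp2-/- CD44hi, against 12.6 and 10 FPKM in WT CD44hi. The WT libraries lay further apart than the Dusp2-/- ones, but all WT values were above all Dusp2-/- values. The log2 fold change was -0.47 (SE 0.11, 95% interval -0.74 to -0.21, limma adjusted p = 0.0244). This is the least secure of the 4, as it no longer passed without Dusp2-/- CD44hi replicate 1 (log2 fold change -0.44, limma adjusted p = 0.061). Btla, the nearest protein-coding neighbour of Cd200 on chromosome 16 with no such gene between them, stood at 11.1 and 11.3 FPKM in Dusp2-/- CD44hi and at 13.1 and 9.98 FPKM in WT CD44hi, so its groups overlapped.

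The other 6 genes did not pass. Pdcd1, which encodes PD-1, stood at 36.1 and 33.3 FPKM in Dusp2-/- CD44hi and at 37.6 and 30.2 FPKM in WT CD44hi, with the Dusp2-/- values between the WT ones. Its log2 fold change of 0.04 had a 95% interval of -0.22 to 0.30 (limma adjusted p = 0.797). Lag3 stood at 82.2 and 75.7 FPKM in Dusp2-/- CD44hi and at 91.1 and 76.2 FPKM in WT CD44hi. Its interval was -0.31 to 0.16, and that of Btla was -0.32 to 0.25. For these 3 genes the intervals do not reach the log2 fold changes of Ctla4 and Nt5e, at -0.86 and -0.87.

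Cd5 stood at 98.4 and 94.5 FPKM in Dusp2-/- CD44hi and at 118 and 94.7 FPKM in WT CD44hi (log2 fold change -0.13, 95% interval -0.39 to 0.12). Both Dusp2-/- libraries were at about the level of the lower WT library. Without WT CD44hi replicate 2, Cd5 and Btla passed as lower in Dusp2-/- (log2 fold changes -0.29 and -0.22, limma adjusted p = 0.0133 and 0.0427). Havcr2, the gene of TIM-3, stood at 1.72 and 2.31 FPKM in Dusp2-/- CD44hi and at 2.99 and 2.22 FPKM in WT CD44hi, with 265 and 333 reads against 354 and 343 reads. Its interval of -0.61 to 0.10 was the widest of the 10. Cd160 stood at 23.9 and 25 FPKM in Dusp2-/- CD44hi and at 27.6 and 26.5 FPKM in WT CD44hi. Its groups did not overlap, yet its log2 fold change of -0.14 was small and did not pass (95% interval -0.29 to 0.01, limma adjusted p = 0.15). With Cd160, 5 of the 10 genes had both Dusp2-/- libraries below both WT libraries, as had 36.2% of all genes tested.

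**Figure D2:**
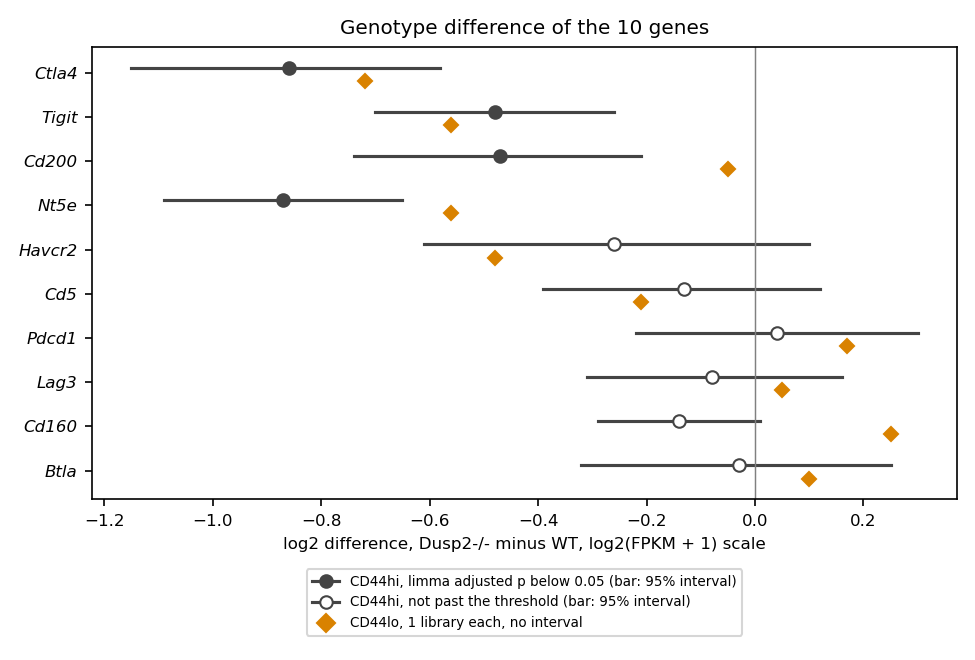
Difference between Dusp2-/- and WT on the log2(FPKM + 1) scale for each gene, with circles and 95% intervals for CD44hi (filled where limma adjusted p is below 0.05) and diamonds for the single CD44lo pair. Ctla4, Nt5e, Tigit, Havcr2 and Cd5 lie left of 0 in both fractions, and Cd200 lies at -0.47 in CD44hi and at -0.05 in CD44lo.

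Other measures moved with this comparison. All 10 genes were higher in WT CD44hi replicate 1 than in WT CD44hi replicate 2, as were 58.6% of all genes tested, with median log2 differences of 0.28 for the 10 genes and 0.04 for all genes. Between the Dusp2-/- CD44hi libraries, 5 of the 10 were higher in replicate 1. The T cell genes Cd3d, Cd3e and Cd3g fell in Dusp2-/- CD44hi by 0.40, 0.64 and 0.45 on the log2 scale, whereas Cd8a (-0.16) and Cd8b1 (0.10) did not pass. The B cell receptor gene Cd79b stood at 22.4 and 24.5 FPKM in Dusp2-/- CD44hi, against 12.2 and 9.88 FPKM in WT CD44hi (log2 fold change 1.03, limma adjusted p = 0.00228). Reads of 13 mitochondrial genes took 2.69% and 2.9% of the depth in Dusp2-/- CD44hi, against 2.11% and 2% in WT CD44hi. Across genes, the genotype difference correlated with gene length (Spearman rho = 0.27), as did the difference between the WT CD44hi replicates (0.32). The same 4 genes passed with the length trend removed from each library. Tigit then shrank from -0.48 to -0.35 (limma adjusted p = 0.0397), while Ctla4 stood at -0.79, Cd200 at -0.44 and Nt5e at -0.94. The part of the T cell genes, of Cd79b and of the mitochondrial reads in the fall of the 4 genes was not tested.

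In CD44lo cells the genotype difference sets 1 library against 1 and is described without a test. Ctla4 stood at 3.6 FPKM in Dusp2-/- CD44lo, against 6.57 FPKM in WT CD44lo (200 and 779 reads), a ratio of 0.548. Nt5e stood at 5.7 FPKM in Dusp2-/- CD44lo, against 8.91 FPKM in WT CD44lo, a ratio of 0.64. Tigit stood at 37.9 FPKM in Dusp2-/- CD44lo, against 56.5 FPKM in WT CD44lo, a ratio of 0.671. These 3 genes were thus lower in Dusp2-/- in both fractions, as were Havcr2 and Cd5 by their means, although these did not pass in CD44hi. In CD44lo 6 of the 10 genes were lower in Dusp2-/-, as were 51.6% of all genes tested. Between these CD44lo libraries the mitochondrial share was 3.73% in Dusp2-/- and 2.51% in WT, and across genes the genotype difference followed gene length with a Spearman rho of -0.33, the opposite sign to CD44hi. The part of either in the CD44lo differences was not tested. Exact binomial 95% intervals of the ratios, which cover counting error only, were 0.467 to 0.641 for Ctla4, 0.599 to 0.683 for Nt5e and 0.62 to 0.726 for Tigit.

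Cd200 did not follow them. It stood at 4.04 FPKM in Dusp2-/- CD44lo and 4.2 FPKM in WT CD44lo, a ratio of 0.96 whose counting interval of 0.839 to 1.1 includes 1. Havcr2 was at 0.262 FPKM in Dusp2-/- CD44lo, against 0.758 FPKM in WT CD44lo, which is only 17 and 105 reads, a ratio of 0.345 with an interval of 0.194 to 0.58. Cd5 was at 53.3 FPKM in Dusp2-/- CD44lo and 61.9 FPKM in WT CD44lo. The other 4 genes were higher in Dusp2-/- CD44lo than in WT CD44lo, with ratios of 1.2 for Cd160, 1.13 for Pdcd1, 1.08 for Btla and 1.03 for Lag3. None of the 10 genes differed by 1 or more on the log2(FPKM + 1) scale, as did 1.68% of all genes tested, and this scale holds down the difference of a low gene such as Havcr2.

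With both fractions in an additive model, 3 Dusp2-/- libraries were set against 3 WT libraries after adjustment for CD44. As the CD44hi libraries enter this model too, it is no separate evidence. Of the 10 genes 3 fell, Ctla4 (log2 fold change -0.82, limma adjusted p = 0.00617), Nt5e (-0.77, limma adjusted p = 0.00617) and Tigit (-0.51, limma adjusted p = 0.0145). Across all genes tested 10.4% passed and 5.17% fell. Cd200 (-0.33, limma adjusted p = 0.133) and Havcr2 (-0.33, limma adjusted p = 0.153) did not pass. Ctla4 and Nt5e passed with any 1 library left out, with adjusted p-values up to 0.0469 and 0.0401. Tigit lost its call with no filter on low values (limma adjusted p = 0.0615), without either Dusp2-/- CD44hi library (limma adjusted p = 0.0749 and 0.065) and without WT CD44hi replicate 1 (limma adjusted p = 0.0827), and over all genes the count of 1008 was 215 to 402 without any 1 CD44hi library. Without the Dusp2-/- or the WT CD44lo library, the adjustment for CD44 takes up the remaining CD44lo library. Those refits only repeat the CD44hi genotype comparison (Cd200 at -0.47) and are no check of the additive model. In Ctla4 and Nt5e all 3 Dusp2-/- libraries lay below all 3 WT libraries, which held for 2 of the 10 genes and for 10.6% of all genes tested.

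The second comparison, CD44hi against CD44lo within each genotype, asks how the genes follow the sorted memory-like state. The lone CD44lo library is assumed to vary like the CD44hi pairs, which alone give the spread, so these calls carry no check on the CD44lo side. CD44hi libraries of the other genotype enter each comparison only through this spread, so leaving 1 of them out keeps every fold change. In Dusp2-/- cells 4 of the 10 genes rose (Tigit, Cd200, Havcr2 and Cd5) and 1 fell (Nt5e). Across all genes tested 40.1% passed, 23.6% higher and 16.5% lower. In WT cells the same 4 rose and none fell, and across all genes tested 26.1% passed, of which those that rose made up 15.4% of the genes tested. With no filter on low values none of the 10 passed in either genotype, with limma adjusted p-values of 0.0514 to 0.0768 for the 5 genes in Dusp2-/- and 0.0542 to 0.105 for the 4 in WT. At unadjusted p below 0.05 the limma test gave 7 of the 10 genes in Dusp2-/- and 5 in WT. The share of all genes at that looser threshold was not computed, so these counts cannot be set against the shares above. Without WT CD44hi replicate 1, the genes passing were 8 of 10 in Dusp2-/- and 7 of 10 in WT, and without WT CD44hi replicate 2 they were 8 of 10 in Dusp2-/-. Over all genes 3888 passed in Dusp2-/-, with 5515 and 5509 without WT CD44hi replicate 1 and 2, and 2559 and 2524 without Dusp2-/- CD44hi replicate 1 and 2. In WT 2527 passed, with 3744 and 3825 without WT CD44hi replicate 1 and 2.

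Cd200, the myeloid-directed ligand, rose in both genotypes. It stood at 12.6 and 10 FPKM in WT CD44hi, against 4.2 FPKM in WT CD44lo (log2 fold change 1.23, 95% interval 0.91 to 1.55, limma adjusted p = 0.0014). In Dusp2-/- the values were 7.58 and 8.04 FPKM in CD44hi, against 4.04 FPKM in CD44lo (0.81, 95% interval 0.48 to 1.13, limma adjusted p = 0.0049). The ratio of CD44hi to CD44lo was 1.93 in Dusp2-/- and 2.69 in WT.

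Havcr2 had the largest ratios, 7.7 in Dusp2-/- and 3.44 in WT, from very low CD44lo levels. Its log2 fold changes were 1.25 in Dusp2-/- (limma adjusted p = 0.00293) and 1.03 in WT (limma adjusted p = 0.00859). Tigit rose by similar amounts in both genotypes, with ratios of 1.9 in Dusp2-/- and 1.79 in WT (log2 fold changes 0.91 and 0.83, limma adjusted p = 0.00175 and 0.00355). Cd5 did likewise, with ratios of 1.81 in Dusp2-/- and 1.72 in WT (0.84 and 0.77, limma adjusted p = 0.00388 and 0.00799). Cd6, a relative of CD5 with similar structure, rose with it, by 0.75 in Dusp2-/- and 0.64 in WT.

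Nt5e ran against these 4. It stood at 3.59 and 3.52 FPKM in Dusp2-/- CD44hi, against 5.7 FPKM in Dusp2-/- CD44lo (log2 fold change -0.56, 95% interval -0.83 to -0.29, limma adjusted p = 0.00984). In WT both CD44hi libraries, at 7.93 and 6.76 FPKM, were also below CD44lo at 8.91 FPKM, but the difference did not pass (-0.25, 95% interval -0.52 to 0.02, limma adjusted p = 0.145). It did pass in WT without WT CD44hi replicate 1 (-0.35, limma adjusted p = 0.0191). The order of Nt5e levels was therefore Dusp2-/- CD44hi, Dusp2-/- CD44lo, WT CD44hi and WT CD44lo, from lowest to highest, with no overlap of neighbours. Ctla4 showed no such order by CD44. Its CD44lo values fell within the CD44hi pair of each genotype, and its log2 fold changes were -0.13 (95% interval -0.48 to 0.22) in Dusp2-/- and 0.01 (-0.34 to 0.37) in WT.

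Pdcd1 was higher in both CD44hi libraries than in CD44lo in each genotype, with ratios of 1.23 in Dusp2-/- and 1.36 in WT. The test was not passed (log2 fold change 0.29, limma adjusted p = 0.121 in Dusp2-/-, and 0.42, limma adjusted p = 0.059 in WT). In WT its log2 fold change was 0.26 and 0.57 without WT CD44hi replicate 1 and 2. It stayed at 0.42 in WT without either Dusp2-/- CD44hi library, and at 0.29 in Dusp2-/- without either WT CD44hi library. The call of Pdcd1 changed to passing in each of these refits, although libraries of the other genotype enter only through the spread. Btla was below CD44lo in both CD44hi libraries of each genotype, at -0.39 in Dusp2-/- (limma adjusted p = 0.0751) and -0.25 in WT (limma adjusted p = 0.241). In Dusp2-/- it stayed at -0.39 without either WT CD44hi library, and in WT it was -0.43 without WT CD44hi replicate 1. The call of Btla changed to passing in these refits too. Lag3 hardly differed between the fractions, with intervals of -0.43 to 0.14 in Dusp2-/- and -0.30 to 0.27 in WT.

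**Figure D3:**
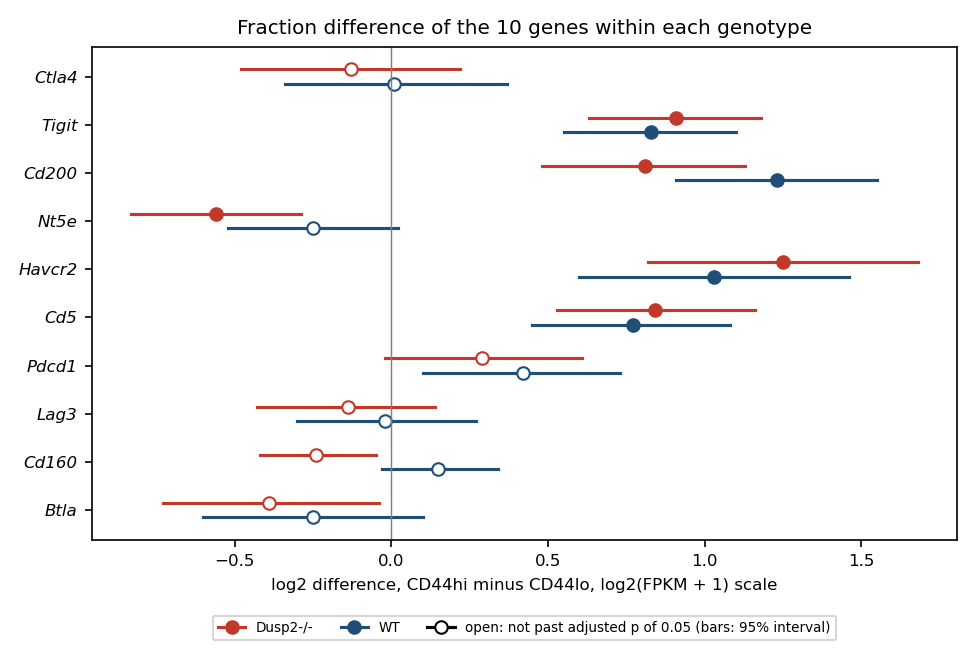
Difference between CD44hi and CD44lo on the log2(FPKM + 1) scale for each gene within Dusp2-/- (red) and WT (blue), with 95% intervals and filled circles where limma adjusted p is below 0.05. Tigit, Cd200, Havcr2, Cd5 and Pdcd1 lie right of 0 in both genotypes, Nt5e, Btla and Lag3 lie left of it, and Cd160 lies at -0.24 in Dusp2-/- and 0.15 in WT.

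The interaction tests whether the genotype difference itself differed between the fractions. None of the 10 genes passed with limma or with limma voom on recovered reads, and 4.22% of all genes tested passed with limma. At an unadjusted limma p below 0.05 there was 1 of the 10 (Cd160), and the share of all genes at that threshold was not computed. Cd160 stood at 23.9 and 25 FPKM in Dusp2-/- CD44hi and 29 FPKM in Dusp2-/- CD44lo, while WT had 27.6 and 26.5 FPKM in CD44hi and 24.2 FPKM in CD44lo. Its interaction was -0.39 (95% interval -0.65 to -0.12, limma adjusted p = 0.085), and it passed without WT CD44hi replicate 1 or 2 (limma adjusted p = 0.0332 and 0.034). The CD44hi against CD44lo difference of Cd160 in Dusp2-/- (-0.24, limma adjusted p = 0.0502) kept its value without either WT library. Its call changed to passing there through the shared spread alone. Cd200 had an interaction of -0.43 (95% interval -0.88 to 0.03, limma adjusted p = 0.195) and passed without WT CD44hi replicate 2 (-0.58, limma adjusted p = 0.0253). For Ctla4, Tigit and Nt5e the interaction values were -0.15, 0.08 and -0.31, with 95% intervals of -0.64 to 0.35, -0.31 to 0.47 and -0.69 to 0.08. Over all genes the interaction count of 409 became 3046 and 1734 without WT CD44hi replicate 1 and 2.

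The ligands of these receptors were measured in the same T cells, which can carry some of them. Of 18 listed ligand and partner genes 9 were tested, and in CD44hi 1 fell in Dusp2-/-, none rose and 8 did not pass. Lgals3, the gene of galectin-3, a reported ligand of LAG-3, was the one that fell, with 3.42 and 2.9 FPKM in Dusp2-/- CD44hi, against 56.3 and 60.2 FPKM in WT CD44hi (log2 fold change -3.83, limma adjusted p = 5.25e-06). Cd274 (PD-L1) at -0.12, Pdcd1lg2 (PD-L2) at 0.00, Lgals9 (galectin-9) at -0.13 and Tnfrsf14 (HVEM) at -0.06 did not pass, and these were named for their role after their values were seen. In CD44lo, which has no test, 2 of the 9 were lower in Dusp2-/- by 1 or more on the log2 scale. Lgals3 stood at 0.0902 FPKM in Dusp2-/- CD44lo, against 13.7 FPKM in WT CD44lo, a difference of -3.75. Tnfrsf14 stood at 8.45 FPKM in Dusp2-/- CD44lo, against 18.9 FPKM in WT CD44lo, a difference of -1.07. Its interaction was 1.01 and did not pass (limma adjusted p = 0.0833). Between the fractions, 2 of the 9 rose and 3 fell in Dusp2-/-, and 2 rose and 4 fell in WT. Cd86, a ligand of CTLA-4, stood at 1.22 and 1.28 FPKM in Dusp2-/- CD44hi, against 5.13 FPKM in Dusp2-/- CD44lo (log2 fold change -1.45, limma adjusted p = 0.000319), and fell in WT by 1.26. Cd274 fell by 0.72 and 0.71 and Lgals9 by 0.66 and 0.51, in Dusp2-/- and in WT. Levels of Cd80 and of the CD200 receptor gene Cd200r1 reached no more than 0.172 and 0.464 FPKM and were not tested.

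Nt5e acts with other genes that make, sense or remove adenosine. Of 14 listed 9 were tested, and 3 rose in Dusp2-/- CD44hi, none fell and 6 did not pass. Ada, the deaminase that destroys adenosine, stood at 5.26 and 5.66 FPKM in Dusp2-/- CD44hi, against 3.33 and 3.45 FPKM in WT CD44hi (log2 fold change 0.56, limma adjusted p = 0.00602). Dpp4, which anchors that enzyme at the cell surface in humans, rose by 0.51, and the nucleoside transporter gene Slc29a2 rose by 0.36. In CD44lo, which has no test, these 3 genes differed by 0.10, -0.15 and 0.41. Entpd1, the gene of CD39 that supplies AMP to CD73, peaked at 0.231 FPKM and was not tested. The adenosine receptor gene Adora2a stood at 23.5 and 19.9 FPKM in Dusp2-/- CD44hi and at 25 and 21 FPKM in WT CD44hi (log2 fold change -0.08, limma adjusted p = 0.612). Between the fractions, 2 of the 9 rose in Dusp2-/-, and 3 rose and 1 fell in WT.

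Of 20 other listed inhibitory receptors 11 were tested, with 1 higher and 3 lower in Dusp2-/- CD44hi and a median of -0.20. Klrd1 and Klrc1 encode the chains of the CD94/NKG2A receptor. Klrd1 stood at 22.1 and 23 FPKM in Dusp2-/- CD44hi, against 49.3 and 42 FPKM in WT CD44hi (log2 fold change -0.98, limma adjusted p = 0.00154), and Klrc1 fell by 0.45. Pecam1, an adhesion receptor with inhibitory motifs, fell by 0.48, and Ly9, a SLAM family receptor, rose by 0.43. Between the fractions, 4 rose and 4 fell in Dusp2-/-, and 5 rose and 4 fell in WT. Klrc1 rose by 1.75 in Dusp2-/- and 2.33 in WT, whereas Slamf6 fell by 1.06 and 1.23, and Tgfbr2, a receptor chain for TGF-β, by 0.67 and 0.72.

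The costimulatory receptors oppose these brakes. Of 12 tested, 5 rose and 1 fell in Dusp2-/- CD44hi, with a median of 0.05, where 26.7% of all genes tested passed. Whether this list differs from the 10 genes, with their median of -0.20, was not tested. Slamf7 (0.81), Tnfrsf4 (0.65, the gene of OX40), Tnfrsf18 (0.51, the gene of GITR) and Crtam (0.49) rose, while Cd27 fell by 0.30. Between the fractions, 4 rose and 2 fell in Dusp2-/-, and 3 rose and 1 fell in WT, with Tnfrsf4 at 1.14 and 1.72 and Cd2 at -0.96 and -0.97.

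Downstream, the inhibitory receptors recruit phosphatases and kinases to their tails. Of 20 such genes 19 were tested, with 1 higher and 3 lower in Dusp2-/- CD44hi. Ptpn6, the gene of the phosphatase SHP-1, stood at 65.5 and 62.5 FPKM in Dusp2-/- CD44hi, against 81.1 and 80.4 FPKM in WT CD44hi (log2 fold change -0.33, limma adjusted p = 0.0135). Ptpn11, the gene of SHP-2, rose by 0.21 (limma adjusted p = 0.0457), and Lck and Csk, which start and restrain TCR signals, fell by 0.41 and 0.25. In the additive model none of the 19 passed. Between the fractions, 4 rose and 5 fell in Dusp2-/-, and 3 fell in WT.

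Of 24 listed transcription factors known to act on inhibitory receptor genes 20 were tested, with 8 higher and 4 lower in Dusp2-/- CD44hi. Nr4a1 stood at 71.4 and 70.2 FPKM in Dusp2-/- CD44hi, against 35.6 and 35 FPKM in WT CD44hi (log2 fold change 0.98, limma adjusted p = 0.000676). Nr4a3 (0.95), Egr3 (1.10) and Tbx21 (0.52), which encodes T-bet, rose as well. The 4 that fell were Bhlhe40 (-0.54), Gata3 (-0.37), Foxo1 (-0.35) and Tcf7 (-0.29). Tox, Prdm1 and Maf, known from exhausted T cells and named here after their values were seen, were low, with Tox at 1.67 to 2.55 FPKM and Prdm1 and Maf at no more than 0.161 and 0.21 FPKM. Between the fractions, 3 rose and 4 fell in Dusp2-/-, and 4 rose and 8 fell in WT.

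**Figure D4:**
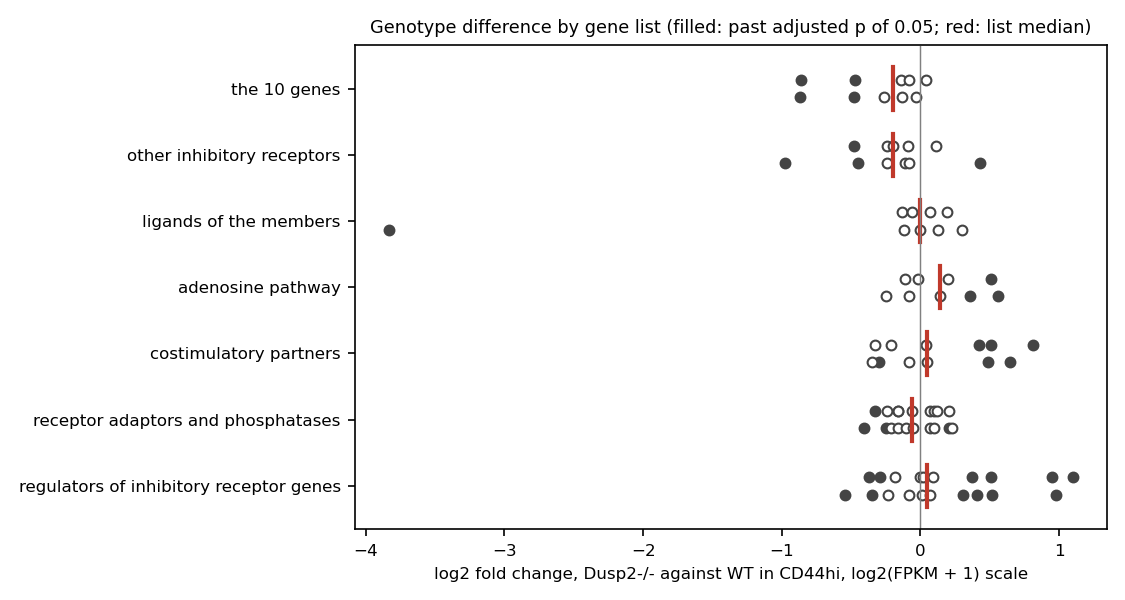
Log2 fold change of Dusp2-/- against WT in CD44hi for every tested gene of 7 lists, filled where limma adjusted p is below 0.05, with the list median in red. Among the 10 genes the filled points all lie left of 0, while the costimulatory and adenosine lists have most of their filled points right of it.

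Genes with the most alike pattern over the 6 libraries were sought among 6413 genes averaging 5 FPKM or more, by the root mean square difference of centred log2(FPKM + 1) values. For Tigit the closest was Bhlhe40, a transcription factor of activated T cells, with a difference of 0.050. Bhlhe40 stood at 19 and 19 FPKM in Dusp2-/- CD44hi and at 31 and 25.6 FPKM in WT CD44hi. With CD44lo values of 9.66 FPKM (Dusp2-/-) and 16 FPKM (WT), its groups had the same order as those of Tigit. Dusp4, a MAP kinase phosphatase gene, came next at 0.116, followed by Atxn1 at 0.121. For Ctla4 they were Emc10 (0.075), Rgs3 (0.118) and Bet1l (0.135), and for Nt5e Pld3 (0.090), Cyth4 (0.094) and Ppp1r15a (0.098). For Cd200 they were Nfil3 (0.138), Nek6 (0.152) and Ptpn5 (0.163).

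For Cd5 the closest were Il2rb (0.052), Nlgn2 (0.053) and Cd6 (0.054), and for Havcr2 Nek6 (0.168), Ccr4 (0.170) and Tnfsf10 (0.181). For Pdcd1 they were Cnpy3 (0.035), Hnrnph1 and Nsdhl (0.045 each), and for Lag3 Mcee (0.033), Rnf111 (0.038) and Gclc (0.045). For Cd160 they were Ifrd1 (0.015), Exosc4 (0.024) and Qtrt1 (0.035), and for Btla Cbx7 (0.031), Gpr18 (0.065) and Atp1b3 (0.069). A gene that varies little has many close neighbours, so these distances are smaller for Cd160 and Lag3 than for Havcr2 or Cd200. Among the 10 genes, Lag3 and Cd160 were the most alike (0.1), and Nt5e and Havcr2 the least (0.78).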

How the data were processed

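RNA was sequenced from 6 libraries of sorted mouse CD8+ T cells. The authors deposited FPKM values for every gene and library in 1 table, and per the submitters' processing notes reads were aligned with HISAT2 2.0.5. The builds named there are mm39 and hg38, with no role stated, and for the counting tool and annotation the sources used here give nothing. The labels' description also names 10X Genomics, whereas their protocol describes bulk total RNA. Groups came from the titles.

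FPKM divides by gene length and by a library total, so a change in a few abundant genes shifts all others. The values of all 16220 rows above 0 in at least 2 libraries were whole multiples of 1 read (100% within 1e-06 reads), which gave reads and depths. Of 2000 perturbed rows 0.2% were, but these were searched over fewer multiples, so the shares are not on equal terms. Intervals from reads cover counting error only. Two-sided tests used limma 3.58.1 (R 4.3.3), with a variance trend, on log2(FPKM + 1) of the 9691 genes averaging 1 FPKM or more, with Benjamini-Hochberg adjustment and a threshold of 0.05. The group model had 2 and the additive model 3 residual degrees of freedom, and fold changes on this scale understate those of low genes. Results were recomputed leaving out each library, with a replicate block, with pseudocounts of 0.1 and 0.5, without a filter or averaging 5 FPKM or more, with 3 other scalings and 2 other variance models, without the trend on gene length, and with limma voom on the recovered reads.

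The text names the 10 genes, Dusp2, Cd44, up to 4 genes per list and comparison with the smallest p among those that passed, and the 3 most alike genes per gene. Other genes are named for their role, after their values were seen. The 10 genes and the other lists were all chosen with earlier results of these data known. Gene names and upstream sequences came from RefSeq (GRCm38.p6).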

Additional observations from a re-analysis of the deposited data

Results flagged for a closer look

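Cd160, a receptor for HVEM, stood lower in Dusp2-/- than in WT in both CD44hi libraries and higher in Dusp2-/- than in WT in CD44lo. It drew attention because all samples of the fractions moved in opposite directions. The CD44hi values were 23.9 and 25 FPKM in Dusp2-/- and 27.6 and 26.5 FPKM in WT, and the CD44lo values were 29 FPKM in Dusp2-/- and 24.2 FPKM in WT. The interaction on the log2 scale was -0.39 and did not pass the test of the difference (limma adjusted p = 0.085). It passed without WT CD44hi replicate 1 (limma adjusted p = 0.0332) or replicate 2 (limma adjusted p = 0.034), and over the 4 CD44hi libraries left out in turn the adjusted p ran from 0.0332 to 0.318. CD44lo has 1 library per genotype.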

How the results depend on the processing

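Of 850 values recomputed under the alternatives, 770 kept their direction and side of the threshold, 18 lost and 26 gained a call, and 36 changed sign, none of them called. Among the 16 called results, none of the 275 values changed sign. Without a filter on low values, 0 of the 10 genes passed in Dusp2-/- against WT in CD44hi (2 over all genes), 0 in CD44hi against CD44lo in Dusp2-/- (2085) and 0 in WT (1170), with the fold changes as before. In the additive model Ctla4 and Nt5e still passed, 2 of the 10 genes (318 over all genes), and over all genes 39 interactions passed. In CD44lo a pseudocount of 0.1 put 1 gene (Havcr2) past a difference of 1. Over all genes the 163 such differences became 323 with that pseudocount and 288 with rescaled totals. The 409 interactions became 684 with median-ratio scaling, 117 without a variance trend and 242 with the length trend removed, and the 1008 of the additive model became 1567 with that trend removed. Ctla4, with a mean of 4.99 FPKM, was not tested under the filter of at least 5 FPKM. With each library left out in turn, the genes that passed numbered 3 to 6 in the CD44hi genotype comparison, 5 to 8 between fractions in Dusp2-/-, 4 to 7 in WT, 0 to 2 for the interaction and 2 to 4 in the additive model. Between fractions, libraries of the other genotype act on these counts only through the shared spread. In the CD44hi genotype comparison, leaving out a CD44lo library keeps every fold change, and the additive model then only repeats that comparison. The cause of the other changes was not tested.

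Across genes, same-numbered CD44hi replicates did not deviate together (correlation 0.02). This cannot decide whether the numbers pair the libraries, as a pairing need not leave a trend across genes. With a replicate block 4, 6, 5, 0 and 3 of the 10 genes passed in these comparisons, adding Pdcd1 between fractions in both genotypes, and over all genes 3326, 4378, 2915, 1565 and 468. Lag3 changed sign between fractions in WT, at 0.08.

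Small values that did not pass changed sign elsewhere too. In the CD44hi genotype comparison these were Lag3 with the length trend removed (0.004) and Btla with rescaled totals (0.01). Between fractions in WT it was Ctla4, with median-ratio scaling (-0.05), quantile normalization (-0.01) and the length trend removed (-0.06). In the interaction the length trend moved Ctla4 to 0.01, Pdcd1 to 0.06 and Lag3 to 0.05, and rescaled totals moved Pdcd1 to 0.02, Lag3 to 0.03 and Btla to 0.01. In the additive model Cd160 became 0.003 with median-ratio scaling and 0.01 with the length trend removed.

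Leaving out single libraries gave ranges across 0 in the CD44hi genotype comparison for Pdcd1 (-0.11 to 0.20), Lag3 (-0.21 to 0.05), Btla (-0.22 to 0.15) and Cd5 (-0.29 to 0.03). Between fractions they were -0.27 to 0.003 for Ctla4 in Dusp2-/-, and -0.09 to 0.12 for Ctla4 and -0.14 to 0.11 for Lag3 in WT. In the interaction they were -0.04 to 0.21 for Tigit, -0.28 to 0.03 for Pdcd1, -0.25 to 0.002 for Lag3, -0.32 to 0.05 for Btla and -0.08 to 0.24 for Cd5. In the additive model they were -0.10 to 0.05 for Lag3, -0.14 to 0.05 for Cd160 and -0.08 to 0.13 for Btla. Depth limits Havcr2 in Dusp2-/- CD44lo most, with 17 reads.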
